A study of Mus musculus with 96 samples.

Results

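The collecting duct of the outer medulla (OMCD) was compared with the collecting duct of the inner medulla (IMCD) in RNA sequencing of microdissected mouse kidney tubules. Samples were chosen by the segment in their labels, which gave 7 OMCD samples from 4 mice and 9 IMCD samples from 3 mice, 16 of 96 samples in the series. All came from male C57BL/6 mice of 6 to 8 weeks kept on normal chow with free water, and each sample was a dissected length of tubule of which 1 to 3 were taken per mouse. Abundance was given as TPM, the share of transcripts scaled to a fixed total, and the mouse was the replicate. The cortical collecting duct (CCD, 5 mice) and the outer and inner medullary parts of the long descending limb (DTL2 and DTL3, 3 mice each) were used as points of reference, and the remaining samples of the 53 mice in all entered the estimate of the spread between mice. Mice are counted by segment and number, and whether the same number in 2 segments is the same animal is not given.

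The collecting duct makes the final adjustment of urine. Its principal cells take up sodium through the epithelial sodium channel and water through aquaporins under aldosterone and vasopressin, and its intercalated cells move acid, bicarbonate and ammonium with the help of a vacuolar proton pump. Intercalated cells are known to be common in the cortex and outer medulla and rare towards the papilla, while the inner medullary duct passes urea through the transporter encoded by Slc14a2 and lives in a hypertonic, poorly oxygenated interstitium in which cells store organic osmolytes.

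The libraries of the 2 segments differed in more than the genes of interest. Genes with at least 1 TPM numbered 16644 to 20672 in the OMCD samples and 12850 to 17486 in the IMCD samples. Summed transcripts of odorant and vomeronasal receptor genes were 310 to 716 TPM in OMCD and 33.8 to 510 TPM in IMCD. The 10 most abundant genes held 9.25% to 11.4% of all TPM in the OMCD mice and 15.6% to 23.1% in the IMCD mice. The nuclear noncoding RNA Malat1 was the most abundant transcript in IMCD, at 103484, 49152 and 48820 TPM in the 3 mice, against 17107 to 22746 TPM in the 4 OMCD mice. Malat1 was not on a list and was named after its values were seen, and its call was lost under quantile normalization and with mouse number as a block. It overlaps Gm37376 on the other strand, and the library kit's strand setting is not given, so reads of the 2 cannot be told apart here. Mitochondrially encoded transcripts summed to 34976 and 43803 TPM in pieces a and c of IMCD mouse 1 and to 16233 to 20027 TPM in the 7 other IMCD pieces. Two-sided exact permutation tests over mice gave adjusted p = 0.0571 for the number of genes detected and for the receptor sum (smallest raw p with 35 splits, 0.0286). Because TPM are shares of a total, the part of these differences in the results below was not tested gene by gene. The median gene among the 33793 tested was at −0.32 on the log2 scale (IMCD minus OMCD), against −0.21 after median ratio rescaling and −0.02 after quantile normalization.

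Of 9944 genes with a mean of at least 10 TPM in OMCD or IMCD, 3126 (31.4%) were called different. A call required a Benjamini-Hochberg adjusted p under 0.05 by limma over all tested genes, a difference of at least 1 in log2(TPM + 1) and at least 10 TPM in the higher group. Higher in OMCD were 2344 genes (23.6%) and higher in IMCD 782 (7.86%). The mice of the 2 segments did not overlap for 3060 of the called genes, which the call largely fixes, and for 6139 (61.7%) of all 9944 genes. The 16 single samples did not overlap for 2828 of the called genes, which the call largely fixes too. That count treats pieces of 1 mouse as separate, was not taken over all 9944 genes and has no share to stand beside. The balance between directions depended on scaling. OMCD held 75% of the calls on TPM as deposited, 58.4% after median ratio rescaling (1618 against 1154 genes) and 53.4% after quantile normalization (1599 against 1393). Differences of at least 5 log2 units were found for 116 genes higher in OMCD and 24 higher in IMCD. Without the floor of 10 TPM, 5135 tested genes (15.2%) were higher in OMCD and 1149 (3.4%) higher in IMCD. In the gene lists below, members under 10 TPM could not be called, so each count is given over the members at that level and stands beside the 23.6% called higher in OMCD and 7.86% called higher in IMCD over all such genes. The IMCD mean was under 1 TPM for 285 genes called higher in OMCD, and the OMCD mean was under 1 TPM for 47 genes called higher in IMCD.

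**Figure D1:**
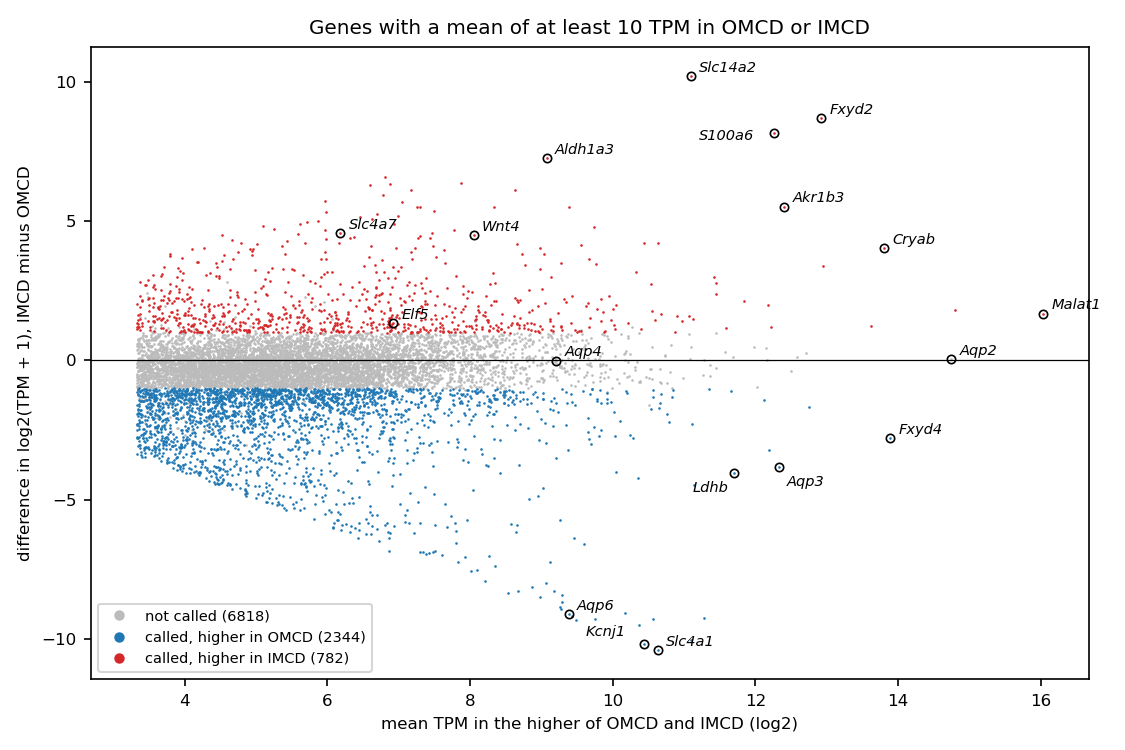
Difference in log2(TPM + 1) between IMCD and OMCD (y axis, above 0 is higher in IMCD) against the mean TPM of the higher segment on a log2 axis, for the 9944 genes with a mean of at least 10 TPM. Blue points are the 2344 genes called higher in OMCD, red points the 782 called higher in IMCD and grey points genes not called, and circled genes are named. Aqp2 and Aqp4 lie near 0, while Slc4a1 and Slc14a2 lie near the opposite ends.

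The segments were checked on 3 marker genes, which were proposed with these data in view and are therefore described without a test. They are counted among the members of their lists below, where they support nothing. Slc4a1, the anion exchanger that returns bicarbonate to the blood across the basolateral membrane of acid-secreting type A intercalated cells, was at 1388, 1334, 1836 and 1772 TPM in the 4 OMCD mice and at 0.753, 0.0333 and 0.01 TPM in the 3 IMCD mice. Slc14a2, the vasopressin-regulated urea transporter, was at 1401, 2464 and 2681 TPM in IMCD and at 0.335, 0.73, 0.12 and 5.78 TPM in OMCD. Aldh1a3, an enzyme that makes retinoic acid, was at 526, 481 and 607 TPM in IMCD and at 0.435 to 6.34 TPM in OMCD. No sample of one segment entered the range of the other for any of the 3 genes: across single pieces Slc4a1 ranged from 1334 to 1932 TPM in OMCD and reached 2.26 TPM in IMCD, and Slc14a2 ranged from 1279 to 2816 TPM in IMCD and reached 11.4 TPM in OMCD.

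**Figure D2:**
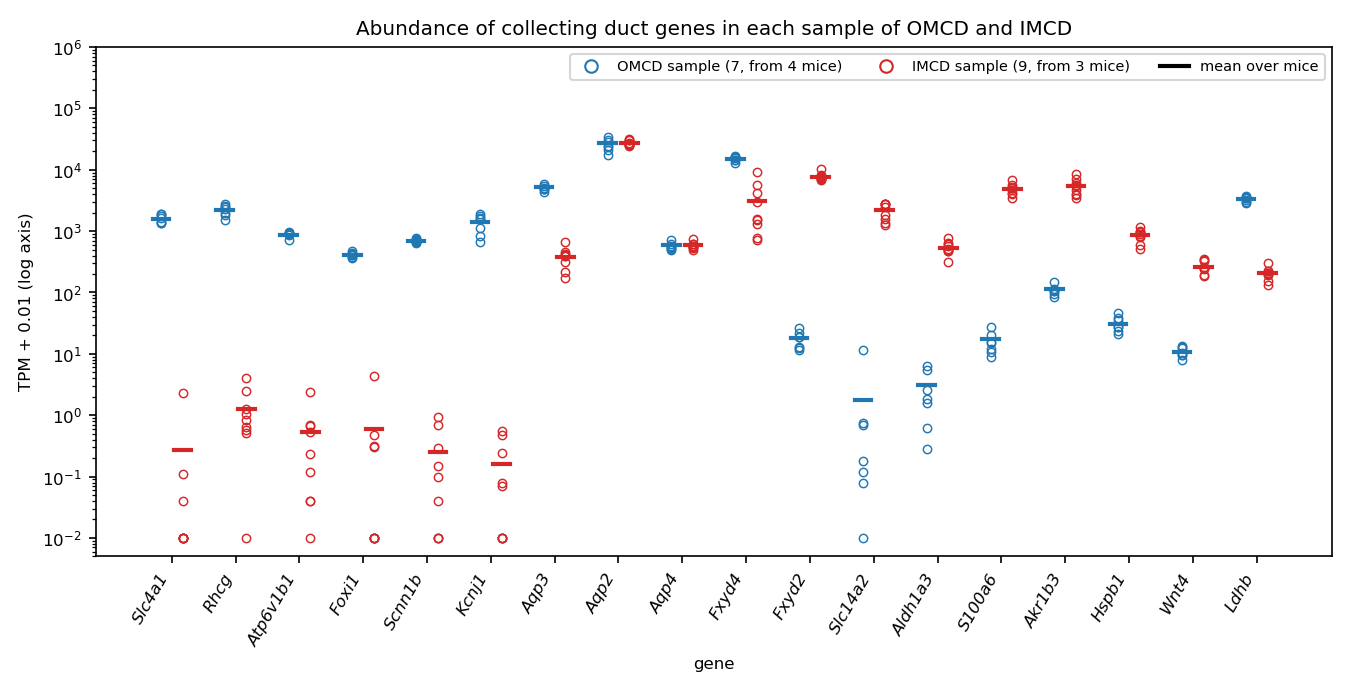
TPM plus 0.01 on a log axis for 18 genes in each of the 7 OMCD samples (blue) and 9 IMCD samples (red), with bars for the mean over mice. The first 6 genes lie at 364 TPM or more in every OMCD sample and at 4.3 TPM or less in every IMCD sample, Aqp2 and Aqp4 overlap, and Slc14a2, Fxyd2, S100a6, Akr1b3, Hspb1 and Wnt4 are separated in the other direction.

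The shared and type A intercalated cell lists had the lowest medians of the lists examined. Of 13 listed genes shared by intercalated cell types, 12 were called higher in OMCD and 1, Slc12a2, higher in IMCD, and of 10 listed type A genes 9 reached 10 TPM and all 9, the marker Slc4a1 included, were called higher in OMCD and none (0) higher in IMCD. The type A count was 7 after median ratio rescaling and 8 after quantile normalization, and the shared count was 12 after either. The median log2 difference over the shared list was −8.26, and over the type A list −6.07, against −0.32 over all tested genes. Summed over each mouse, the shared list came to 7323 to 9407 TPM in OMCD and 210 to 282 TPM in IMCD. In bulk samples fewer cells of a type and less RNA per cell cannot be told apart.

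Among the subunits of the vacuolar proton pump, Atp6v1b1, the subunit typical of intercalated cells whose loss causes distal renal tubular acidosis, was at 924, 724, 927 and 886 TPM in OMCD and at 1.03, 0.427 and 0.0833 TPM in IMCD (a difference of −9.27 in log2, SE 0.31, adjusted p = 1.62e-27 by limma). Atp6v0d2, Atp6v1g3, Atp6v0a4 and Atp6v1c2, other subunits with forms restricted to a few cell types, were between 70.8 and 572 TPM in the OMCD mice and between 0 and 2.08 TPM in the IMCD mice. Foxi1, the forkhead transcription factor needed to form intercalated cells, was at 364 to 453 TPM in OMCD and at 0.153 to 1.43 TPM in IMCD (−8.26, SE 0.29, adjusted p = 9.05e-27). The groups were far apart for all 6 of these genes, and the spread among OMCD mice was small beside the gap.

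The promoter of Atp6v1b1 is shown because its data move with those of Foxi1 and because it holds a forkhead core. The sequence is the 250 bases upstream of the RefSeq start on GRCm38.p6, chr6:83742767-83743016, + strand, with the letters TGTTTAC in capitals.
Atp6v1b1: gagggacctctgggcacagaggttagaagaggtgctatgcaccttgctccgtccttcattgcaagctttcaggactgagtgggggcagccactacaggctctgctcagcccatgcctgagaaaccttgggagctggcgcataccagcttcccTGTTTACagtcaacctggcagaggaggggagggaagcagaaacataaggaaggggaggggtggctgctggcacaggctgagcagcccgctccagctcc
The motif begins 98 bases before the start. TGTTTAC, searched on both strands of the 250 upstream bases, was found in 3.17% of all 32851 RefSeq promoters, in 2.28% of promoters of genes with at least 10 TPM here, in 2.85% of those called higher in OMCD and in 2.04% of those called higher in IMCD. Of 21 intercalated list genes called higher in OMCD, 14 had a promoter in the table, and Atp6v1b1 was the 1 gene with the motif. The match is a description of the letters in this window.

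Transporters of the intercalated cell followed the pump. The ammonia transporters Rhcg (1679 to 2626 TPM in OMCD, 0.75 to 1.53 TPM in IMCD; −10.05, SE 0.15, adjusted p = 9.05e-41) and Rhbg (478 to 687 TPM against 0.347 to 3.24 TPM; −8.40, SE 0.23, adjusted p = 1e-30) were near absent in IMCD. So was Bsnd, which encodes barttin (81.5 to 108 TPM against 0.37 to 1.36 TPM). Aqp6, an aquaporin of intracellular vesicles in intercalated cells, was at 563 to 748 TPM in OMCD and at 0.0367 to 0.673 TPM in IMCD (−9.10, SE 0.13, adjusted p = 1.98e-41). The carbonic anhydrases fell to different depths: Car12, a membrane-bound form, from 382 to 819 TPM down to 0.773 to 1.14 TPM, and Car2, the cytosolic form, from 1941 to 2664 TPM down to 85.2 to 112 TPM. Of the genes on the type A list, the receptor tyrosine kinase Kit, the anion exchanger Slc26a7, the adhesion receptor Adgrf5 and the transcription factor Dmrt2 were also called higher in OMCD. So was the oxoglutarate receptor Oxgr1, whose place on that list was not tested here. The log2 differences of these genes were −5.15 to −7.54. The potassium channel Kcnk1 was the shallowest at −1.03 and its call was lost with a pseudocount of 0.1 or 5 TPM in place of 1, under both rescalings, without IMCD mouse 1 and without the 2 IMCD pieces richest in mitochondrially encoded transcripts.

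The anion exchangers of the bicarbonate-secreting type B cell were far lower in OMCD than in the cortex. Slc4a9, a basolateral exchanger of that cell, averaged 865 ± 144 TPM (SD, n = 5) in the cortex, 67.5 ± 20.2 TPM (n = 4) in OMCD and, in IMCD, 0.0256 ± 0.0222 TPM (n = 3). Slc26a4, its apical exchanger pendrin, averaged 1769 ± 364 TPM in the cortex, 4.40 ± 4.20 TPM in OMCD and, in IMCD, 0.103 ± 0.159 TPM, so it stayed under the level needed for a call between the 2 medullary segments. Of 6 listed type B genes 4 reached 10 TPM, and 3 of them were called higher in OMCD and none (0) higher in IMCD. The list summed to 362 to 426 TPM in OMCD and 183 to 776 TPM in IMCD, overlapping ranges. Nearly all of the IMCD sum came from listed members other than these 2 exchangers, so the overlap does not measure type B cells.

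Other bicarbonate and ammonium transporters were higher in IMCD. Slc4a7, an electroneutral sodium bicarbonate cotransporter of the same gene family, was at 81.1, 59.2 and 77.1 TPM in IMCD and at 1.39 to 3.12 TPM in OMCD (4.58, SE 0.26, adjusted p = 3.1e-19). Slc12a2, the basolateral sodium potassium chloride cotransporter that carries ammonium into collecting duct cells, was at 95.4, 119 and 167 TPM in IMCD and at 9.81 to 16.2 TPM in OMCD (3.21, SE 0.20, adjusted p = 2.06e-17). The ranges of both genes were clear of each other. The exchanger Slc4a2 went the other way, from 57.9 to 68.3 TPM in OMCD to 17 to 32.3 TPM in IMCD. Of 15 urea, ammonium and acid genes 10 reached 10 TPM, of which 6 were called higher in OMCD and 2, Slc4a7 and the marker Slc14a2, higher in IMCD.

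Principal cell genes included members level between the segments and members lower in IMCD. The water channel Aqp2, inserted into the apical membrane by vasopressin, was at 29290, 34804, 23813 and 19190 TPM in OMCD and at 27334, 29536 and 25310 TPM in IMCD. The ranges overlapped and the log2 difference was 0.06 (SE 0.49, adjusted p = 0.951). Basolateral Aqp4 was at 516 to 728 TPM in OMCD and 544 to 627 TPM in IMCD (−0.01, SE 0.26), and the vasopressin receptor Avpr2 was at 961 to 1685 and 719 to 1289 TPM (−0.35, SE 0.31, adjusted p = 0.434). The other basolateral water channel, Aqp3, was at 4531 to 5886 TPM in OMCD and at 260 to 469 TPM in IMCD (−3.83, SE 0.23, adjusted p = 3.92e-18). Gata3, a transcription factor of principal cells, was at 147 to 173 TPM in OMCD and 147 to 166 TPM in IMCD.

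Sodium uptake genes were nearly gone from IMCD. The 3 subunits of the epithelial sodium channel, Scnn1a, Scnn1b and Scnn1g, were at 154 to 226, 647 to 727 and 536 to 696 TPM in the OMCD mice. In the IMCD mice they were at 0.453 to 0.59, 0.15 to 0.343 and 0.04 to 0.87 TPM. Their log2 differences were −7.00 (SE 0.25), −9.16 (SE 0.22) and −8.93 (SE 0.17), with adjusted p of at most 2.44e-26. Hsd11b2, which inactivates glucocorticoids so that aldosterone can reach its receptor, was at 1991 to 2926 TPM in OMCD and at 1.68 to 6.34 TPM in IMCD. Kcnj1, the secretory potassium channel ROMK, was at 754, 1563, 1834 and 1391 TPM in OMCD and at 0.153, 0.0767 and 0.223 TPM in IMCD (−10.17, SE 0.26, adjusted p = 1.12e-31). The mineralocorticoid receptor gene Nr3c2 was lower by less, at 65.6 to 82.9 TPM in OMCD and 9.85 to 22.3 TPM in IMCD (−2.36, SE 0.28), and the ubiquitin ligase Nedd4l, which removes the sodium channel from the membrane, was at 240 to 288 and 27.5 to 54.3 TPM. Higher in IMCD were Sgk1, a kinase that acts on Nedd4l, from 83 to 441 TPM in OMCD to 1114 to 1722 TPM in IMCD (2.76, SE 0.53, adjusted p = 4.66e-05), and Tsc22d3 from 82.3 to 180 TPM to 435 to 930 TPM (2.32, SE 0.32).

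Small regulatory subunits of the sodium potassium pump differed in both directions. Fxyd2, the gamma subunit that modulates the pump, was at 15.6, 21.7, 22.5 and 12.2 TPM in OMCD and at 8144, 7951 and 7182 TPM in IMCD (8.71, SE 0.18, adjusted p = 3.93e-35). Fxyd4, a related modulator of collecting duct, was at 16460, 15307, 13684 and 15148 TPM in OMCD and at 6390, 1475 and 1457 TPM in IMCD (−2.79, SE 0.48, adjusted p = 7.52e-06). IMCD mouse 1 was high for Fxyd4 among its group, yet below every OMCD mouse, and the call was lost with mouse number as a block. Fxyd2 averaged 567 ± 120 TPM (SD, n = 5) in CCD, so OMCD was the lowest of the 3 collecting duct segments. Of 19 sodium and potassium transport genes 17 reached 10 TPM, of which 10 were called higher in OMCD and 3 (Fxyd2, Sgk1, Tsc22d3) higher in IMCD, and of 13 principal cell genes 8 were higher in OMCD and 1, the transcription factor Elf5, higher in IMCD.

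**Figure D3:**
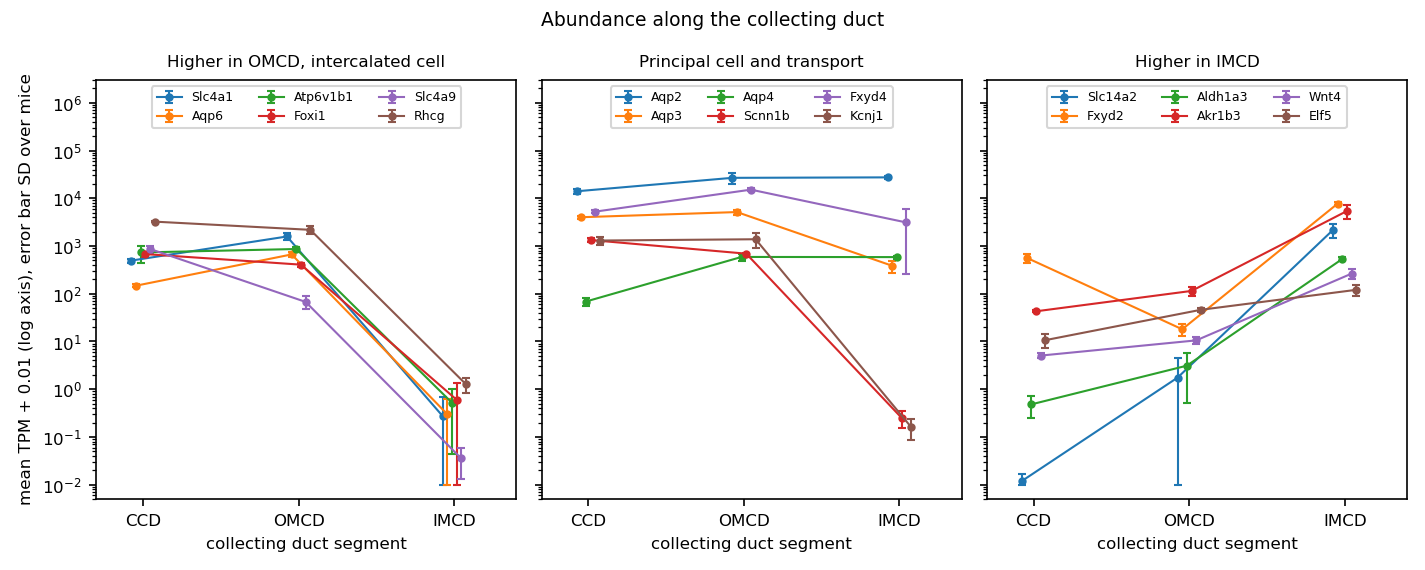
Mean TPM plus 0.01 on a log axis in CCD (5 mice), OMCD (4 mice) and IMCD (3 mice), with SD over mice as error bars, for intercalated cell genes (left), principal cell and transport genes (middle) and genes higher in IMCD (right). Lines join the means of 1 gene. Slc4a1 and Aqp6 peak in OMCD and Slc4a9 falls from CCD onward, Aqp2 and Aqp4 are level between OMCD and IMCD, and Fxyd2 is lower in OMCD than in CCD.

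Signalling behind vasopressin also differed in single members. Prkar2b, a regulatory subunit of the cyclic AMP-dependent kinase, was at 0.32 to 1.38 TPM in OMCD and at 13.1, 36.6 and 43 TPM in IMCD (3.99, SE 0.25, adjusted p = 1.35e-17). Akap7, an anchoring protein of that kinase, was at 22.1 to 35.8 TPM in OMCD and 4.01 to 7.59 TPM in IMCD (−2.22, SE 0.22). The adenylyl cyclase Adcy6 was at 29.8 to 38 and 31.2 to 46.8 TPM, with overlapping ranges. Of 11 water and vasopressin genes 9 reached 10 TPM, of which 2 were called higher in OMCD and 1 higher in IMCD, shares near those of all genes.

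Organic osmolyte genes moved in both directions. Of 16 listed genes 6 were called higher in IMCD (Akr1b3, Slc5a3, Hspb1, Hspa1b, Hspa4l and Zfp36l1) and 5 higher in OMCD (Slc6a6, Sord, Gdpd5, Slc38a2 and Stk39), and the median log2 difference was 0.60. The call of Gdpd5 was lost under quantile normalization and with a pseudocount of 5, and that of Hspa4l with mouse number as a block. Akr1b3, aldose reductase, which makes the osmolyte sorbitol, was at 3774, 7228 and 5293 TPM in IMCD and at 109, 151, 108 and 90.5 TPM in OMCD (5.52, SE 0.27, adjusted p = 2.11e-21). Sord, the dehydrogenase that removes sorbitol, was at 5.99 to 19.5 TPM in OMCD and at 0.05 to 0.347 TPM in IMCD (−3.57, SE 0.27, adjusted p = 1.05e-14). The synthesizing and removing enzymes thus had opposite gradients, with no overlap between mice for either.

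Transporters of the other osmolytes included members higher in either segment. Slc5a3, the inositol transporter, was at 14.9 to 20.9 TPM in OMCD and at 76.6, 161 and 122 TPM in IMCD (2.64, SE 0.34, adjusted p = 2.21e-08); its exons overlap those of Mrps6 on the same strand. Slc6a12, the betaine transporter, was at 18.3, 67.2, 35.8 and 20.3 TPM in OMCD and 48.2, 69.8 and 84.5 TPM in IMCD, ranges that overlapped (1.08, SE 0.48, adjusted p = 0.0801). It was called higher in IMCD under both rescalings (1.34 and 1.48) and without OMCD mouse 2 (1.46). Slc6a6, the taurine transporter, was lower in IMCD, at 10.9 to 12 TPM against 42.6 to 54.7 TPM. Nfat5, the transcription factor that responds to tonicity, was at 21 to 29.6 TPM in OMCD and 20.2 to 28.7 TPM in IMCD (−0.18, SE 0.17, adjusted p = 0.451). Among chaperones, Hspb1, a small heat shock protein, was at 24.1, 23.2, 31.9 and 42 TPM in OMCD and at 648, 1015 and 908 TPM in IMCD (4.78, SE 0.26, adjusted p = 9.75e-20). Hspa1b was higher by 1.71 (SE 0.60, adjusted p = 0.0257), a call lost with no filter on low values, without OMCD mouse 1 or 4 and without IMCD mouse 2 or 3. It and Hspa1a are near-identical copies that share reads, so the split between them is uncertain.

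The promoter of Hspb1 is shown as the gene with the largest IMCD difference among listed chaperones, with the letters of the NFAT5 core, TGGAAA or its reverse complement, in capitals. It is the 250 bases upstream of the RefSeq start on GRCm38.p6, chr5:135887669-135887918, + strand.
Hspb1: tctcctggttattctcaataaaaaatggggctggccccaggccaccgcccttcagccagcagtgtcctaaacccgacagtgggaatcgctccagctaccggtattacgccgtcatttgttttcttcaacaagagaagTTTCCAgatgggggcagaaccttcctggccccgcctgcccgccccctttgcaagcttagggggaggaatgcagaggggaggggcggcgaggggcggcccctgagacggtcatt
The match lies on the reverse strand and begins 113 bases before the start. TGGAAA, searched on both strands, was in 18.6% of all RefSeq promoters of this length, in 14.9% of those of genes with at least 10 TPM, in 17.6% of those of genes called higher in IMCD and in 15.7% of those of genes called higher in OMCD. Of the 6 osmolyte genes called higher in IMCD, 5 had a promoter in the table and Hspb1 alone of them held the letters.

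The descending limb crosses the same border between outer and inner medulla and was used to ask whether the osmolyte and the glycolysis and hypoxia genes differed there in the same way. Of the 51 genes on the 2 lists 10 were called higher in DTL3 and 9 higher in DTL2. Over all tested genes 6.08% were called higher in DTL3 and 3.5% higher in DTL2, and over the genes with at least 10 TPM in OMCD or IMCD 7.76% and 6.2%. For 23 of the 51 the difference in the collecting duct differed from that in the descending limb by the interaction term (22% of all tested genes), and was the more negative for 18 of them and the more positive for 5. These counts have no floor of 10 TPM, and 4 of the 51 genes lay under it in all 4 segments. Akr1b3 was 287 ± 266 TPM in DTL2 and 2934 ± 824 TPM in DTL3 (SD, n = 3 each), a log2 difference of 3.72 (SE 0.29), smaller than that of the collecting duct by 1.80 (SE 0.39, adjusted p = 0.000505). Hspb1 had opposite gradients: it was higher in the outer part of the descending limb, at 331 ± 45.7 TPM in DTL2 against 99 ± 8.69 TPM in DTL3, and the difference of differences was 6.52 (SE 0.38, adjusted p = 4.65e-18). Slc5a3 was not called between DTL2 and DTL3 (−0.49, SE 0.36), and its interaction was 3.13 (SE 0.50, adjusted p = 4.04e-06). Sord was lower in the inner medulla in both tubules, by −3.57 and −3.36, with an interaction of −0.20 (SE 0.40, adjusted p = 0.727).

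**Figure D4:**
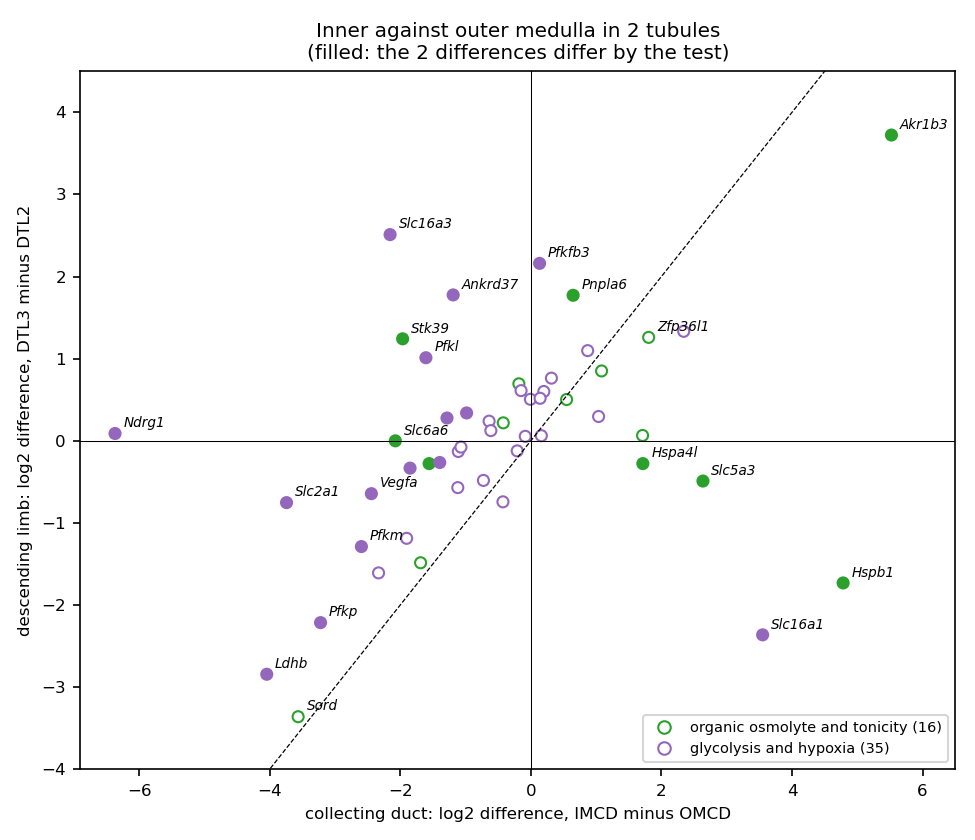
Log2 difference between inner and outer medulla in the descending limb (y axis, DTL3 minus DTL2) against that in the collecting duct (x axis, IMCD minus OMCD) for 16 osmolyte genes (green) and 35 glycolysis and hypoxia genes (purple). Filled points passed the test of the difference between the 2 tubules, the dashed line marks equal differences, and solid lines mark 0. Akr1b3 is positive on both axes, Ldhb and Pfkp are negative on both, and Hspb1 and Slc16a1 have opposite signs.

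Glycolysis and hypoxia genes were mostly lower in IMCD or not called. Of 35 genes 29 reached 10 TPM, of which 14 were called higher in OMCD and 3 higher in IMCD, with a median of −0.98 (−0.73 and −0.59 under the 2 rescalings). The glucose transporter Slc2a1 was at 333 to 465 TPM in OMCD and 17.2 to 40.3 TPM in IMCD (−3.74, SE 0.23, adjusted p = 4.9e-18). The 3 phosphofructokinase genes Pfkl, Pfkm and Pfkp were all called higher in OMCD, by 1.61 to 3.22 log2 units (−1.61, −2.60 and −3.22). The lactate dehydrogenase subunits differed from each other: Ldhb, the subunit of oxidative tissues, was at 2932, 3231, 3482 and 3683 TPM in OMCD and at 196, 207 and 210 TPM in IMCD (−4.05, SE 0.17, adjusted p = 1.36e-23), while Ldha was at 1295 to 1648 and 1392 to 1981 TPM with overlapping ranges (0.20, SE 0.14). Gapdh, Pgk1, Pgam1 and Hif1a overlapped as well.

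Also on this list, Vegfa, Bnip3, Ankrd37 and Ndrg1 were among the genes called higher in OMCD, and Egln3, P4ha1 and Slc16a1 were the 3 called higher in IMCD. The calls of Ankrd37 and Bnip3 were lost under both rescalings, that of Bnip3 also without IMCD mouse 1 and that of Ankrd37 also without IMCD mouse 3. That of P4ha1 was lost without IMCD mouse 2 or 3 and without the 2 IMCD pieces richest in odorant and vomeronasal receptor transcripts. Those of Ankrd37 and P4ha1 were also lost with mouse number as a block and with a pseudocount of 5. Ndrg1, a stress-responsive gene of differentiated epithelia, was at 528 to 858 TPM in OMCD and 4.23 to 10.4 TPM in IMCD (−6.37, SE 0.31, adjusted p = 3.07e-21), with no such difference in the descending limb (0.09, SE 0.34; interaction −6.46, SE 0.46). Egln3, an oxygen-sensing prolyl hydroxylase, was at 3.23 to 6.1 TPM in OMCD and 21.2 to 34 TPM in IMCD (2.34, SE 0.34). Slc16a1, a lactate and pyruvate carrier, was at 0.06 to 1.05 TPM in OMCD and 6.76, 24.9 and 22.4 TPM in IMCD (3.55, SE 0.39, adjusted p = 4.03e-10), and lower in DTL3 than in DTL2 (−2.36, SE 0.42).

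The called mitochondrial oxidation genes were all higher in OMCD. Of 39 genes 37 reached 10 TPM, of which 23 were called higher in OMCD and none (0) higher in IMCD, and the median was −1.16 (−0.89 after median ratio rescaling, with 17 calls, and −1.15 after quantile normalization, with 21). The list does not stand for the whole respiratory chain. Of 87 respiratory chain and ATP synthase genes with at least 10 TPM, 21 were called higher in OMCD, near the 23.6% of all such genes. Their median was −0.45, against −0.34 over all genes at that level. Ppargc1a, a coactivator of mitochondrial biogenesis, was at 89.3, 94.3, 96.5 and 97.1 TPM in OMCD and at 8.27, 11.3 and 13 TPM in IMCD (−3.06, SE 0.20, adjusted p = 1.03e-16). Its partner receptors Esrra and Esrrg were lower by −2.09 (SE 0.16) and −4.59 (SE 0.28). Ckmt1, the mitochondrial creatine kinase, was at 671 to 869 TPM in OMCD and 5.38 to 9.8 TPM in IMCD (−6.59, SE 0.22), and Ckb, the cytosolic brain form, was lower too (−3.92, SE 0.38). Cox7a1, a cytochrome oxidase subunit, stood out within its complex at −4.66 (SE 0.35), where Cox5a was at 826 to 1006 TPM in OMCD and 710 to 923 TPM in IMCD with overlapping ranges. Of citric acid cycle enzymes, the isocitrate dehydrogenase Idh2 was at −2.83 (SE 0.14), the citrate synthase Cs at −1.10 (SE 0.15; call lost after median ratio rescaling, with mouse number as a block and without IMCD mouse 1), and Mdh2 was not called (−0.36, SE 0.17). Over the same mice the mitochondrially encoded transcripts summed to 17362 to 32600 TPM in IMCD and 17200 to 18693 TPM in OMCD. Their part in the list was not tested, and without pieces a and c of IMCD mouse 1 the count of calls over all genes was 3170.

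**Figure D5:**
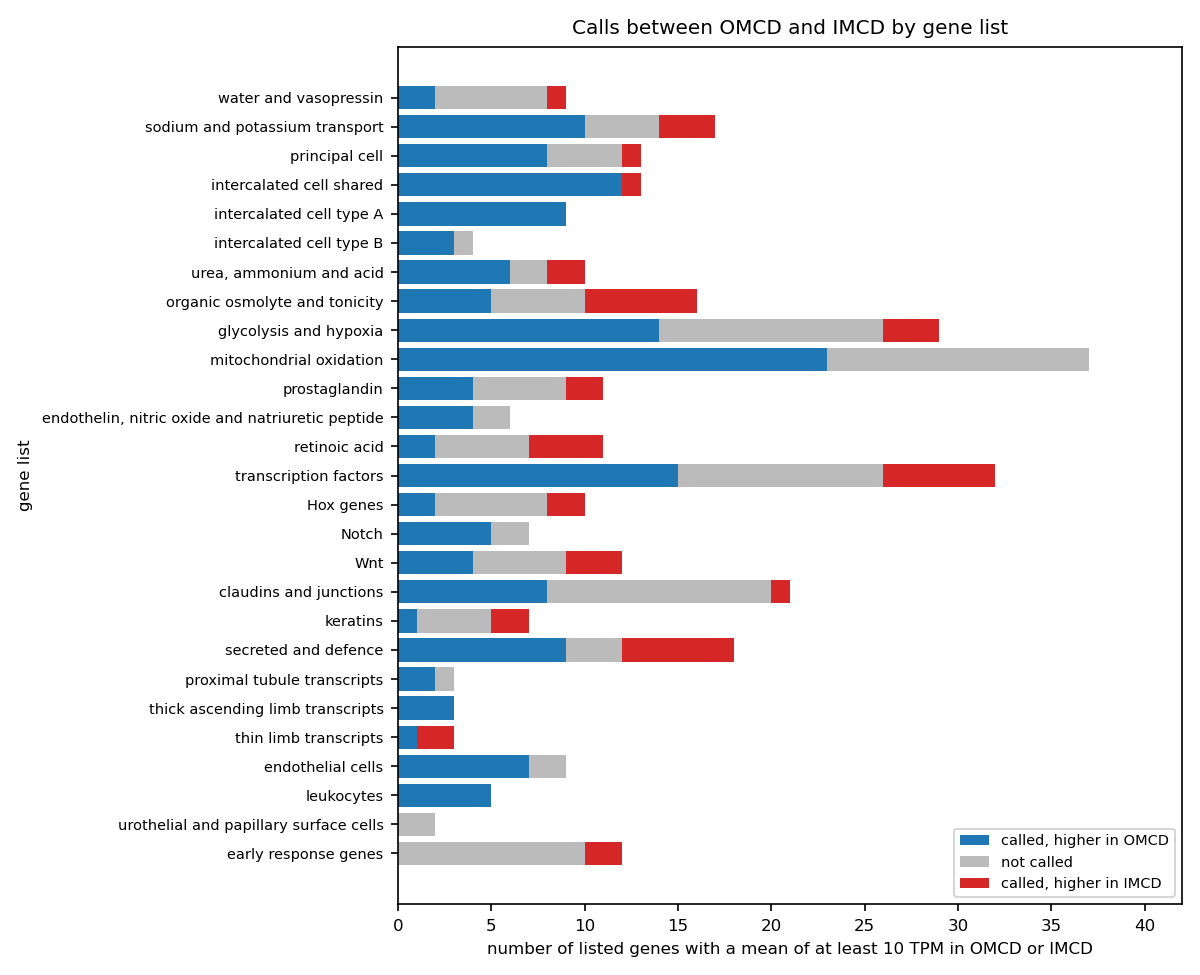
Number of genes called higher in OMCD (blue), not called (grey) and called higher in IMCD (red) among listed genes with a mean of at least 10 TPM in either segment, by list. Listed genes under 10 TPM are not drawn. The intercalated and mitochondrial oxidation bars are mostly blue, and the osmolyte, secreted and retinoic acid bars hold the largest red shares among lists with at least 10 genes drawn.

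Among secreted and calcium-binding proteins, S100a6 was at 18, 27.3, 11.5 and 11.9 TPM in OMCD and at 5857, 4988 and 3912 TPM in IMCD (8.15, SE 0.45, adjusted p = 1.22e-19). S100a4 was at 0.55 to 5.27 TPM and 213 to 261 TPM, while S100a1 was higher in OMCD, at 930 to 1076 TPM against 321 to 429 TPM, and S100a11 overlapped. Members of 1 family were thus separated in both directions. The apical mucin Muc1 (1.50, SE 0.27), the disulfide isomerase Pdia2 (5.18, SE 0.32) and the stress-induced regulator Nupr1 (4.20, SE 0.38) were called higher in IMCD. Defb1, an antimicrobial defensin, was at 1278 to 1763 TPM in OMCD and 1.27 to 8.62 TPM in IMCD (−9.29, SE 0.35, adjusted p = 1.66e-25). Apela, a peptide ligand of the apelin receptor, was at 1600 to 1870 TPM in OMCD and 289 to 644 TPM in IMCD (−2.20, SE 0.21). Of 25 listed genes 18 reached 10 TPM, of which 9 were called higher in OMCD and 6 higher in IMCD.

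The other genes with the largest differences included enzymes, matrix genes and regulators. Higher in OMCD were the calcium-permeable lysosomal channel Mcoln3 (453 to 824 TPM against 0.0567 to 0.213 TPM in IMCD), the serine protease Prss23 (472 to 763 TPM against 0.0567 to 1.36 TPM) and Tmem213 (1190 to 1390 TPM against 0.423 to 4.99 TPM), which overlaps Atp6v0a4 on the other strand. Higher in IMCD were the homeobox gene Meox2 (74.3, 176 and 86.8 TPM against 0.02 to 0.2 TPM in OMCD), the malic enzyme of the cytosol Me1 (151, 529 and 502 TPM against 2.81 to 5.44 TPM) and the collagen-binding integrin Itga2 (40.9, 57.1 and 88.7 TPM against 0.065 to 0.3 TPM). The mitochondrial carrier Slc25a48, the reticulon Rtn1, the serine protease Prss35, the tenascin Tnn, the small GTPase Rhof and Tm6sf1 completed the 15 largest differences in that direction, between 5.51 and 6.35 on the log2 scale. Tnn was uneven within OMCD, at 1.97, 6.77, 0.23 and 0.475 TPM.

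Some prostaglandin genes were higher in IMCD and others higher in OMCD. Ptges, the synthase that makes prostaglandin E2, was at 47.5 to 52.5 TPM in OMCD and at 442, 515 and 553 TPM in IMCD (3.28, SE 0.41, adjusted p = 9.23e-09). Ptgs1, the cyclooxygenase before it, was lower in IMCD, at 102 to 216 TPM against 280 to 470 TPM (−1.31, SE 0.28). Abcc4, an efflux pump that exports prostaglandins and cyclic nucleotides, was higher in IMCD (2.30, SE 0.23). The receptors Ptgfr (71.4 to 98.1 TPM against 0.01 to 0.0667 TPM) and Ptger4 (9.04 to 14.5 TPM against 0.127 to 0.673 TPM) were higher in OMCD, and Ptger1 was not called (−0.64, SE 0.29). Of 18 genes 11 reached 10 TPM, of which 4 were called higher in OMCD and 2 higher in IMCD. After median ratio rescaling these counts were 3 and 3, and after quantile normalization 4 and 3. In the list of 22 genes named for endothelin, nitric oxide and natriuretic peptides, 6 of which reached 10 TPM, Edn3, Ece1 and Ednrb were called higher in OMCD. P2ry2, a nucleotide receptor on this list that belongs to none of these systems, was also called higher in OMCD. None (0) was called higher in IMCD. The call of P2ry2 was lost under both rescalings, with a pseudocount of 5, with mouse number as a block, without OMCD mouse 4 and without IMCD mouse 1.

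Retinoic acid genes differed in both directions. Crabp2, which delivers retinoic acid to its nuclear receptors, was at 6.97 to 8.87 TPM in OMCD and at 112, 78.6 and 135 TPM in IMCD (3.60, SE 0.28, adjusted p = 1.12e-14). Rarb, a receptor gene that retinoic acid induces, was at 3.01 to 3.75 TPM in OMCD and at 21.9, 65 and 49.7 TPM in IMCD (3.30, SE 0.31, adjusted p = 3.15e-12), with an exon overlap with Top2b on the other strand, and Rara and Rarg overlapped between segments. Aldh1a1, another enzyme that makes retinoic acid, went the other way, at 25 to 45.4 TPM in OMCD and 2.02 to 5.88 TPM in IMCD (−3.39, SE 0.29), as did Dhrs3, which reduces retinal (−2.53, SE 0.29). Of 24 genes 11 reached 10 TPM, of which 4 were called higher in IMCD, the marker Aldh1a3 and, at the threshold, Tgm2 among them. Tgm2 was at adjusted p = 0.0496 by limma, a call lost without any 1 of 6 of the 7 mice and under 6 other alternatives. Aldh1a1 and Dhrs3 were the 2 called higher in OMCD. The list's median, −0.10, turned to 0.06 under quantile normalization.

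Among transcription factors, those of the intercalated cell (Foxi1, Dmrt2) and Tfcp2l1, which is needed for both collecting duct cell types, fell most. Tfcp2l1 was at 335 to 466 TPM in OMCD and 4.44 to 7.3 TPM in IMCD (−5.90, SE 0.33, adjusted p = 3.61e-19). The ETS factors Elf3 (1.32, SE 0.22), Elf5 (1.34, SE 0.27) and Ehf (1.07, SE 0.31; call lost without OMCD mouse 3 or IMCD mouse 2), the T-box factor Tbx3 (2.39, SE 0.38), Pax2 (1.47, SE 0.22) and Grhl1 (1.34, SE 0.26) were called higher in IMCD. Related factors were called in the other direction: Grhl2 (−1.37, SE 0.19; call lost under quantile normalization) and Tbx2 (−1.10, SE 0.33; call lost under both rescalings and with a pseudocount of 0.1). The calls of Pax2 and Grhl1 were lost with mouse number as a block, and that of Grhl1 also with a pseudocount of 5. Of 50 genes 32 reached 10 TPM, of which 15 were called higher in OMCD and 6 higher in IMCD. Of 39 Hox genes, which mark position along the body axis, 10 reached 10 TPM, Hoxb3 and Hoxb5 were called higher in IMCD and Hoxd3 and Hoxd8 higher in OMCD. The call of Hoxd3 was lost under quantile normalization, that of Hoxb3 with mouse number as a block and that of Hoxb5 with a pseudocount of 5.

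Among Wnt genes, 3 ligands were higher in IMCD. Wnt4 was at 11.4, 8.01, 11.4 and 11.3 TPM in OMCD and at 337, 207 and 251 TPM in IMCD (4.52, SE 0.24, adjusted p = 3.62e-20). Wnt5a was at 1.28 to 3.73 and 23.6 to 37.8 TPM (3.24, SE 0.25), and Wnt7b, which is required for the medulla to form, at 80.2 to 126 and 162 to 473 TPM (1.68, SE 0.29). The call of Wnt7b was lost with mouse number as a block. Wnt9b overlapped. The receptors Fzd1, Fzd4 and Fzd8 and the coreceptor Lgr4 were lower in IMCD, by −1.91 to −3.20. Of 29 Wnt genes 12 reached 10 TPM. Of 18 Notch genes, which set the choice between principal and intercalated fate, 7 reached 10 TPM and 5 of them (Notch2, Jag1, Dll1, Hes1 and Hes6) were called higher in OMCD and none (0) higher in IMCD. The call of Hes1 was lost with mouse number as a block. Jag1, a ligand, was at 15.9 to 19.8 TPM and 0.777 to 2.28 TPM (−2.90, SE 0.24).

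Of 30 claudin and junction genes 21 reached 10 TPM, of which 8 were called higher in OMCD and 1, Cldn4, a claudin of the paracellular chloride path, higher in IMCD (66 to 109 TPM against 179 to 221 TPM; 1.18, SE 0.27). Cldn3 (−3.31, SE 0.30), Cldn6, Cldn19 and the cadherins Cdh2, Cdh3 and Cdh16 fell, with Cdh16, a kidney cadherin, at 6251 to 7558 TPM in OMCD and 2006 to 2378 TPM in IMCD. Cldn7, Cldn8 and Epcam were not called. Among 15 keratins, 7 of which reached 10 TPM, Krt19 (2.97, SE 0.31) and Krt23 (1.83, SE 0.18) were called higher in IMCD and Krt7 higher in OMCD (−1.30, SE 0.18).

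Markers of neighbouring cells moved with the segments. Of 13 endothelial genes 9 reached 10 TPM, of which 7 were called higher in OMCD, and their sum was 535 to 696 TPM in the OMCD mice and 50.3 to 366 TPM in the IMCD mice. Of 12 leukocyte genes 5 reached 10 TPM and all 5 were called higher in OMCD (2 after median ratio rescaling and 5 after quantile normalization), with sums of 140 to 581 TPM against 6.21 to 7.74 TPM. Of 8 thick ascending limb genes 3 reached 10 TPM and all 3 (Cldn19, Enpp2 and Kng2) were called higher in OMCD, and the list summed to 79.6 to 161 TPM against 2.69 to 5.14 TPM. Among its other members, Slc12a1 was at 0.305 to 0.57 TPM and Umod at 0.35 to 5.64 TPM in OMCD. Of 12 proximal tubule genes 3 reached 10 TPM and 2 of those 3 were called higher in OMCD, and the list summed to 37.4 to 49.8 TPM against 5.75 to 35.2 TPM. Of 12 thin limb genes 3 reached 10 TPM, of which 2 were called higher in IMCD and 1 higher in OMCD. The list summed to 862 to 988 TPM in OMCD and 7972 to 20007 TPM in IMCD. Cryab, a chaperone also of medullary duct cells, made up 7832 to 19775 TPM of the IMCD sum. Aqp1, the defining water channel of the descending limb, was at 0.04 to 2.03 TPM in IMCD. The stromal and muscle list summed to 20.0 to 32.7 TPM in OMCD and 13.3 to 17.5 TPM in IMCD, ranges that did not overlap. No gene of that list or of the erythroid list reached 10 TPM, so none could be called, and the 2 urothelial genes that did were not called. The part of these cells in the counts was not tested. In an alternative chosen after the data were seen, when 2 OMCD mice were set against the 2 IMCD pieces with the most receptor transcripts, the median over all tested genes was −0.02 (−0.26 over genes with at least 10 TPM, against −0.34 with all samples), and 3000 genes were called, 2170 higher in OMCD and 830 higher in IMCD. The calls of Ankrd37, P4ha1, Gdpd5, Slc38a2, Hspa1b, Ehf, Grhl2, Tbx2 and Tgm2 were lost in it. In the same alternative 1 Hox gene was called higher in IMCD, against 2 with all samples. Leukocyte genes called higher in OMCD numbered 3 in it, against 5 with all samples.

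The cortical duct resembled OMCD more than IMCD for most called genes. On the log2 scale the CCD mean was nearer to OMCD for 2019 of the 2344 genes called higher in OMCD and for 751 of the 782 called higher in IMCD. It lay within 1 log2 unit of OMCD for 1907 and 608 of them. These counts describe where CCD lay and carry no test.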

How the data were processed

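RNA of microdissected tubule pieces was amplified with SMARTer V4 and made into Nextera XT libraries, per the labels' protocols. The submitters' processing notes name STAR 2.5.4a and RSEM 1.3.0; the genome build is not given in the sources used here. The authors deposited TPM, which keep no read depth, so depth is unknown. Pieces of a mouse were averaged as log2(TPM + 1), a scale that understates the change of low genes; printed TPM of a mouse are arithmetic means. Genes with at least 1 TPM in at least 3 mice (33793 of 54532) were tested with limma 3.58.1 in R 4.3.3, with 1 spread over 53 mice in 15 groups, and Benjamini-Hochberg adjustment. The procedure was run on simulated data, and no outcome of that run is reported here. P-values rest on the spread within groups over all 53 mice, most of them of other segments, not on the OMCD and IMCD mice alone. Over the alternatives the highest adjusted p by limma was 0.00879 for Aqp6 and for Rhcg. Named genes were the 15 largest called differences in each direction and members of 29 lists; members and lists were chosen with earlier results of these data known, and a few are not reported here. The 12 genes singled out between tubules were chosen with values known, Slc16a1 and Sord last. The 3 single-cell samples were not analysed here. Alternatives changed the pseudocount, filter, scaling, floor, averaging and libraries. Opposite-strand overlaps cannot be told apart.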

Additional observations from a re-analysis of the deposited data

Results flagged for a closer look

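Among the 182 named genes, 1 OMCD mouse stood apart from the other 3 by Dixon's criterion for 11 genes, where chance gives about 1 in 20. In mouse 1 these were Fzd1 at 43.3 TPM (others 77.8 to 81.2 TPM), Fzd8 at 16.5 TPM (others 28.5 to 29.3 TPM) and Mcoln3 at 453 TPM (others 773 to 824 TPM). In mouse 2 these were Meox2 at 0.2 TPM (others 0.02 to 0.04 TPM), Pax2 at 17.9 TPM (others 10.5 to 11.2 TPM), Pdia2 at 1.25 TPM (others 2.96 to 3.31 TPM), Rhbg at 478 TPM (others 663 to 687 TPM) and Wnt4 at 8.01 TPM (others 11.3 to 11.4 TPM). Mouse 2 is a single sample, whereas the values of the other 3 mice are means over pieces. In mouse 4 these were Kcnk1 at 131 TPM (others 152 to 154 TPM), Slc14a2 at 5.78 TPM (others 0.12 to 0.73 TPM) and Tm6sf1 at 3.52 TPM (others 5.52 to 5.82 TPM). The Slc14a2 value of mouse 4 came from piece b at 11.44 TPM, with piece a at 0.11 TPM. Groups of 3 mice were not examined by this criterion. None of these mice entered the range of the other segment for the genes named.

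The difference between inner and outer medulla itself differed between the collecting duct and the descending limb for 23 of the 51 listed genes by the interaction term in limma (22% of all tested genes), the more negative in the collecting duct for 18 and the more positive for 5. Singled out here are 12 of the 51, chosen with values known, of which 9 passed, so their balance is not that of the list. The collecting duct difference was the more positive for Akr1b3 (1.80, adjusted p = 0.000505), Hspb1 (6.52, adjusted p = 4.65e-18), Slc5a3 (3.13, adjusted p = 4.04e-06), Hspa4l (1.99, adjusted p = 9.9e-05) and Slc16a1 (5.92, adjusted p = 3.36e-11). It was the more negative for Ndrg1 (−6.46, adjusted p = 3.3e-15), Ldhb (−1.20, adjusted p = 0.0003), Slc2a1 (−2.99, adjusted p = 1.47e-09) and Pfkp (−1.01, adjusted p = 0.0135). The other 3 genes, Hspa1b, Zfp36l1 and Sord, did not pass.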

How the results depend on the processing

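The count of called genes was 2560 to 3209 with a pseudocount of 5 or 0.1, and 2772 and 2992 under median ratio rescaling and quantile normalization, where 1154 and 1393 genes were higher in IMCD. With a floor of 50 TPM it was 1366 (913 higher in OMCD, 453 in IMCD), and with no minimum difference 5847 (4159 and 1688), since these settings narrow or widen the rule itself. Leaving out 1 mouse gave 2998 to 3344 calls, 2126 to 2596 of them higher in OMCD and 745 to 872 higher in IMCD. Correlations of deviations from the group means were 0.030, −0.007 and −0.047 between mice of the same number. Between mice of different numbers they ran from −0.065 to 0.071. So few values cannot decide whether the numbers pair the samples. With mouse number as a replicate block, 2634 genes were called (1989 and 645) against 3075 without it in the same 2 segments, where OMCD mouse 4 has no IMCD partner and adds nothing to the blocked difference. Alternatives chosen after seeing the data gave 3298 calls without the IMCD pieces rich in receptor transcripts, 3170 without those rich in mitochondrial transcripts and 2842 over protein-coding genes. Of the 182 named genes 155 stayed on the same side of the threshold under the alternatives run for single genes, which leave the floor and the minimum difference as they are, and none was reversed. With the block 14 named calls or adjusted p-values no longer passed. Leaving out 1 mouse gave 16 to 19 listed calls between DTL3 and DTL2 and 18 to 25 for the difference between tubules. These 2 counts were 17 and 16 under median ratio rescaling and 19 and 17 under quantile normalization. Depth, which TPM do not keep, sets no stated limit here.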

Other observations

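The genes in this part were chosen after their values were seen. Of 21 vacuolar proton pump genes with at least 10 TPM, the intercalated cell subunits above included, 13 were called higher in OMCD and 1, Atp6v0e2, higher in IMCD, with a median of −1.47 (over all genes at that level 23.6% were called higher in OMCD and 7.86% higher in IMCD). Atp6v1e1, a stalk subunit, was at 696 to 970 TPM in OMCD and 81.9 to 122 TPM in IMCD (−2.98, SE 0.14, adjusted p = 4.43e-22 by limma), while Atp6v1f fell by less (−1.32, SE 0.11). Of 87 genes of the respiratory chain and ATP synthase 21 were called higher in OMCD, a share near that of all genes, and none (0) higher in IMCD.

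Me3, a mitochondrial malic enzyme, was at 169 to 285 TPM in OMCD and 0.36 to 0.803 TPM in IMCD (−7.24, SE 0.21, adjusted p = 4.32e-30 by limma), opposite to Me1. Idh1, the cytosolic isocitrate dehydrogenase, was at 54.2 to 74.5 TPM in OMCD and 537 to 1024 TPM in IMCD (3.64, SE 0.19), opposite to the mitochondrial Idh2. Pcx, pyruvate carboxylase, was higher in IMCD (3.43, SE 0.27), as was the citrate carrier Slc25a1 (1.94, SE 0.16). Among basement membrane genes, Col4a1 (−5.36, SE 0.39), Col4a2 (−4.61, SE 0.31) and Lamb1 (−5.79, SE 0.21) were higher in OMCD, and Lamb3, a laminin chain of stratified epithelia, was at 1.35 to 4.69 TPM in OMCD and 61.1 to 259 TPM in IMCD (5.38, SE 0.31).

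Of 21 heat shock genes with at least 10 TPM, 7 were called higher in IMCD and 1, Hspa8, higher in OMCD. Of 167 ribosomal genes 41 were called higher in IMCD and 7 higher in OMCD, with a median of 0.63. Both families stand beside 7.86% called higher in IMCD and 23.6% higher in OMCD over all genes with at least 10 TPM. Of the 782 genes called higher in IMCD, 233 (29.8% of them and 11.3% of the DTL3 list) were also higher in DTL3 than in DTL2 and 27 (3.45%) higher in DTL2. Of the 2344 genes called higher in OMCD, 416 (17.7% of them and 35.2% of the DTL2 list) were also higher in DTL2 and 139 (5.93%) higher in DTL3. Over all genes with at least 10 TPM 7.76% were higher in DTL3 and 6.2% higher in DTL2.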
